A study of Mus musculus with 6 samples.

Results

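The Ebf transcription factors are the 4 genes Ebf1, Ebf2, Ebf3 and Ebf4, taken by symbol from a table of 53686 gene symbols. All 4 were present and all 4 passed the filter on low counts, with between 2153 and 7950 counts per gene in every library. The study sequenced poly-A RNA from dissected mouse olfactory epithelium, the nasal tissue of the olfactory sensory neurons, in 6 libraries from C57BL/6J mice. The first group was 3 libraries from wild-type mice, and the second was 3 libraries from mice that carry 1 copy (hemizygous) of 5x21-OR1A1, a transgene named for the odorant receptor OR1A1. The series title describes the receptor transgene as highly represented and asks about the mechanism of receptor choice. The labels give neither the age and sex of the mice nor the promoter that drives the transgene, the number of founder lines or the pooling of animals. They number the libraries as replicates without naming animals, so p-values measure only the spread between these libraries.

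Ebf proteins, also called Olf-1/EBF or O/E factors, bind DNA as dimers at a nearly palindromic site. The founding member was found independently as the factor Olf-1 that binds upstream of genes specific to olfactory neurons and as the early B-cell factor EBF. In olfactory neurons Ebf sites lie in the promoters of odorant receptor genes and in the enhancers that act on them, where Ebf works with the LIM-homeodomain factor Lhx2 and its cofactor Ldb1. Outside the neurons, Ebf1 is a master regulator of B lymphocytes, and Ebf1 and Ebf2 are also active in adipocyte and bone progenitors.

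The string TCCCNNGGGA, which reads the same on both strands, was used for the Ebf site, and the RefSeq promoter windows on GRCm38.p6, 250 bases before to 50 bases after each start, were searched for it. Ebf1, Ebf3 and Ebf4 matched an entry by symbol, and none of their windows held the full string, which was in 0.904% of all 32851 windows. With at most 1 of the 8 fixed letters changed, 16.5% of all windows held a match, among them those of Ebf3, of Cnga2, the olfactory channel gene, and 1 of the 3 windows of Ldb1. Neither window of Adcy3 held one. The 50 bases around the Cnga2 match lie on the plus strand at chrX:71991762-71991811, and those around the Ebf3 match that begins 22 bases before its start lie on the minus strand at chr7:137314438-137314487. The capitals mark the match, and both strings are shown as examples of a match, one in a member and one in an olfactory gene; whether Ebf binds either was not tested.
Cnga2: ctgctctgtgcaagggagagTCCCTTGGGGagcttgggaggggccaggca
Ebf3: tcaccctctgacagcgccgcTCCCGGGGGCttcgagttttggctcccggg

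Ebf4 is the member whose RNA differed between the genotypes, so the 250 bases before its RefSeq start are shown, at chr2:130295689-130295938 on the plus strand. No capitals appear in them because no match was found, which says only that these letters are not in this window. The whole window was 74.3% G and C, that of Ebf3 77.0%, and those at the 2 Ebf1 starts 36.7% and 53.0%.
Ebf4: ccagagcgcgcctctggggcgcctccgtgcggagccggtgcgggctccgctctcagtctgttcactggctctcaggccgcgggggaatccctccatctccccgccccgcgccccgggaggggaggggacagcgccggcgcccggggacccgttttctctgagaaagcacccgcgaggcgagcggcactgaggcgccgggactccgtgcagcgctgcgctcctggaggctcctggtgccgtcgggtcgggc

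Windows at the RefSeq starts of odorant receptor genes, whose promoters Ebf is known to bind, were searched in the same way. Whether each RefSeq start is the start used in this tissue was not tested. Of 948 windows of genes named Olfr, 9.7% held TCCCNNGGGA with at most 1 letter changed, against 16.5% of all windows. The homeodomain string TAATTA, which Lhx2-type factors can bind, was in 18.6% of them and in 5.29% of all windows. The receptor windows also had a lower median G and C content, 35.0% against 52.7%. Among receptor genes with a window that were tested for expression, the median log2 fold change was -0.73 for the 71 with an Ebf-like match and -0.74 for the 685 without one. A loose match is not a known Ebf site, and binding was not tested, so these medians are a description only.

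In GRCm38, with GENCODE M21 gene models, the 4 genes are protein-coding and lie on different chromosomes. Ebf1 (ENSMUSG00000057098.14) spans chr11:44617317-45008091 on the plus strand, Ebf2 (ENSMUSG00000022053.13) spans chr14:67233292-67430918 on the plus strand, Ebf3 (ENSMUSG00000010476.14) spans chr7:137193673-137314445 on the minus strand and Ebf4 (ENSMUSG00000053552.14) spans chr2:130295169-130370481 on the plus strand. The models hold 17 separate exonic blocks in each gene, and these add up to 9756, 6928, 9227 and 3236 bases for Ebf1 to Ebf4. Ebf4 overlaps no other annotated gene. Since the libraries carry no strand, reads from bases that the others share with antisense partners cannot be assigned by strand. How such reads were counted is not given. The partners that share exonic bases are Gm10860 with Ebf2 (424 bases) and Gm45278 with Ebf3 (355 bases). These had 0 to 2 and 3 to 11 counts per library, against 2153 or more for the Ebf genes. Reads in the shared bases may be missing from those counts.

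Library totals ran from 27506217 to 35804712 counts. The tissue label fitted its defining marker, Omp, the olfactory marker protein, which was at 6655 CPM or more in every library, where CPM is a count after scaling each library to the same total. Transgenic library 2 stood apart from the rest. A chi-square comparison of its gene counts gave, per degree of freedom, 172 to 234 against each other library, compared with 52.5 to 136 among the other 5. Marker counts of mature neurons, summed over 14 genes, took 2.06 to 2.70% of all counts in wild-type libraries and 1.36 to 1.49% in transgenic libraries. In whole tissue, fewer cells of a type and less RNA per cell cannot be told apart.

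Ebf4 was lower in transgenic tissue, by about 40%, and the other 3 members did not pass the test. Of the 4 members, 1 was called lower and 0 higher at an adjusted p under 0.05. Of the 19267 genes tested 2.71% were called, which is 2.2% of all tested called lower and 0.519% called higher. Tests were made with edgeR's quasi-likelihood test on counts scaled by the trimmed mean of M-values (TMM), adjusted by Benjamini-Hochberg over all genes tested. The number of genes called, 523, fell to 313 when wild-type library 2 was left out, and to 155, 175 or 150 when transgenic library 1, 2 or 3 was. The median log2 fold change of the family was -0.10, and that of all genes tested 0.02.

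Ebf4, first described as an O/E family member of the olfactory epithelium, stood at 160, 163 and 132 CPM in wild-type libraries 1 to 3 and at 93.6, 98.3 and 79.3 CPM in transgenic libraries 1 to 3. The lowest wild-type library was above the highest transgenic one, so the groups did not overlap. A fall without overlap was seen in 12.5% of all genes tested. The means were 151 ± 16.9 and 90.4 ± 9.90 CPM (SD, n = 3 each). The log2 fold change was -0.74 (SE 0.11, 95% interval -1.01 to -0.48, edgeR adjusted p = 0.0162), and 3.75% of tested genes had a lower fold change. Counting error in these libraries was 1.30 to 2.16% per value, so it was small against the spread between libraries. The call was lost without transgenic library 1 (log2 fold change -0.77, edgeR adjusted p = 0.0751) and without transgenic library 3 (-0.66, adjusted p = 0.0741). With either library left out only 0.79 and 0.763% of genes were called. It was also lost when libraries were scaled to mature neuron markers (-0.0513, edgeR adjusted p = 0.752), a scaling that puts the median gene at 0.71 and calls 77.7% of genes.

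Ebf1, the member that also specifies B lymphocytes, was at 104, 129 and 98.5 CPM in wild-type libraries and 104, 114 and 106 CPM in transgenic libraries. The transgenic values lay within the wild-type range. The log2 fold change was -0.03 (95% interval -0.28 to 0.22, edgeR adjusted p = 0.917). It was 0.10 without wild-type library 2, the highest of the 6.

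Ebf2, which guides the axons of olfactory neurons to the bulb together with Ebf3, was at 154, 218 and 172 CPM in wild-type libraries and 175, 205 and 177 CPM in transgenic libraries. It had the widest spread of the 4 in wild-type tissue, and the transgenic values again lay inside that range. The log2 fold change was 0.04 (95% interval -0.28 to 0.35, edgeR adjusted p = 0.924), and its sign turned in 3 of the 6 fits that left out a library.

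Ebf3 was at 163, 192 and 158 CPM in wild-type libraries and 144, 163 and 152 CPM in transgenic libraries. The groups overlapped through transgenic library 2, at 163.4 CPM. The log2 fold change was -0.16 (95% interval -0.39 to 0.06, edgeR adjusted p = 0.447). For Ebf1, Ebf2 and Ebf3 the intervals leave room for differences of up to about 0.4 on the log2 scale, so a missed threshold does not show that these genes were the same in both genotypes.

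**Figure D1:**
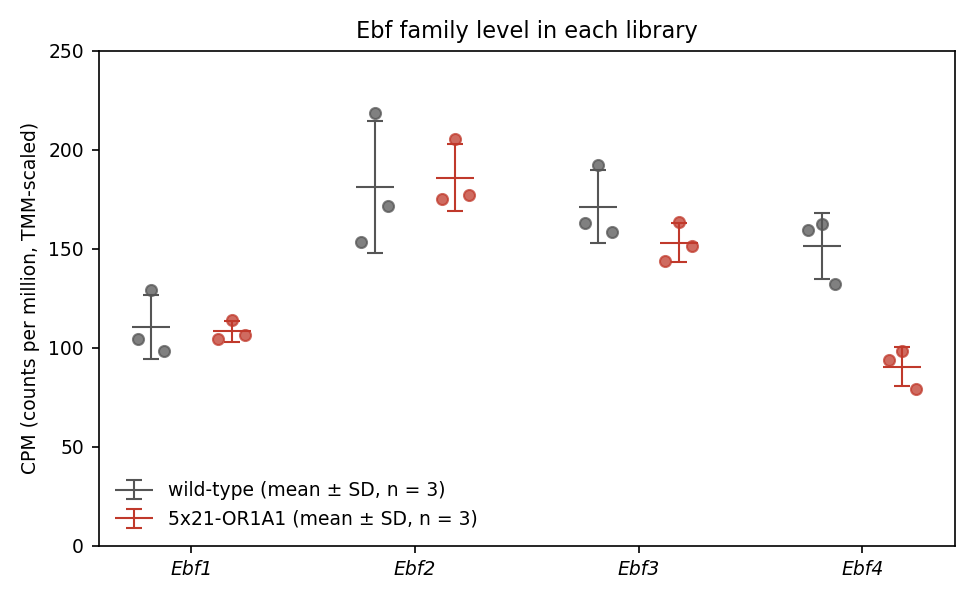
Level of each Ebf gene in CPM (after TMM scaling, linear axis) for the 3 wild-type and 3 5x21-OR1A1 libraries, with points for libraries, and horizontal marks and bars for the mean ± SD. The Ebf4 groups do not overlap (132 to 163 against 79.3 to 98.3 CPM), while those of Ebf1, Ebf2 and Ebf3 do.

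The order of the family by level was read per length, as RPKM (CPM per kilobase of all annotated exons of a gene joined). In wild-type tissue Ebf4 was highest at 46.8 ± 5.21 RPKM, followed by Ebf2 at 26.2 ± 4.82, Ebf3 at 18.6 ± 2.001 and Ebf1 at 11.3 ± 1.66 (SD, n = 3). No neighbours in that order overlapped between libraries. In transgenic tissue Ebf4 was at 27.9 ± 3.06 RPKM and Ebf2 at 26.8 ± 2.46, with overlapping libraries, so the 2 highest members did not differ beyond their spread. Ebf3 at 16.6 ± 1.06 and Ebf1 at 11.1 ± 0.530 RPKM kept their place. These levels depend on the exon models, since a gene that uses few of its annotated exons is understated.

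The make-up of the family shifted with the fall of Ebf4. Per length, Ebf4 gave 49.4, 43.4 and 43.9% of the family in wild-type libraries and 35.9, 34.0 and 31.7% in transgenic libraries. Ebf2 gave 22.2, 27.2 and 26.7% and then 31.4, 33.2 and 33.0%. Shares within a whole move against each other, so the larger shares of Ebf1, Ebf2 and Ebf3 are not rises in their RNA. The family summed to 92.8 to 116 RPKM in wild-type and 77.4 to 89.4 RPKM in transgenic libraries. That sum gives each Ebf4 count the most weight, because its exons are the shortest. In CPM the family summed to 560 to 702 in wild-type and 514 to 581 in transgenic libraries, with overlap. By counts Ebf4 gave a mean of 24.7% of the family in wild-type and 16.8% in transgenic libraries.

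**Figure D2:**
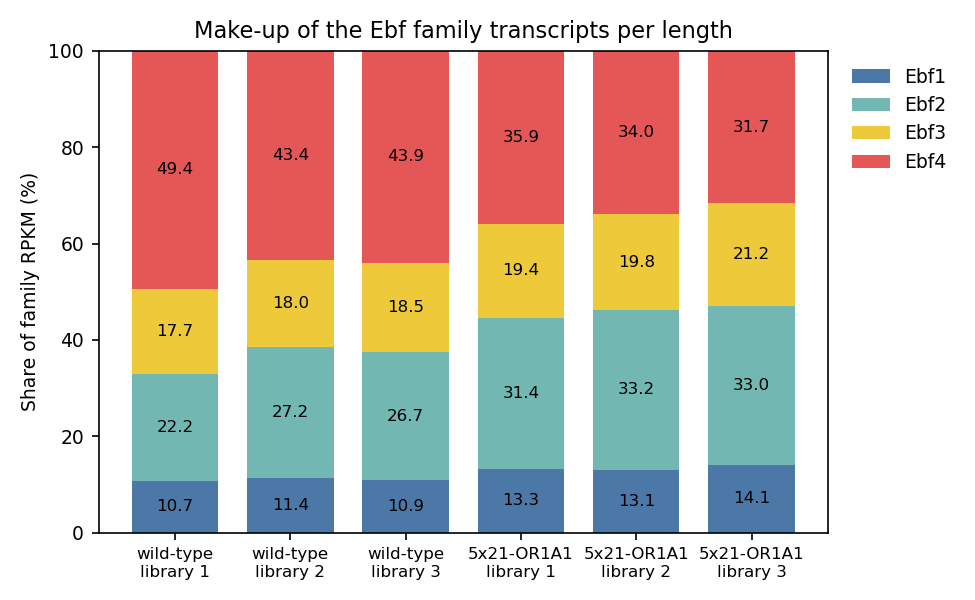
Share of each Ebf gene in the summed RPKM of the family (%, stacked to 100), 1 bar per library. Ebf4 takes 43.4 to 49.4% of each wild-type bar and 31.7 to 35.9% of each 5x21-OR1A1 bar.

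Whether the members changed alike was tested on the log2 ratio of 2 members within a library, from which library scaling cancels. Each of the 6 pairs was compared by a two-sided exact permutation test, which cannot go under p = 0.1 with 3 against 3. The ratio of Ebf4 to Ebf1 was 0.61, 0.33 and 0.42 in wild-type libraries and -0.15, -0.21 and -0.42 in transgenic libraries, a difference of -0.72 (SE 0.12). Against Ebf2 the difference of Ebf4 was -0.79 (SE 0.17), and against Ebf3 it was -0.58 (SE 0.12). In all 3 ratios the groups did not overlap (exact permutation p = 0.1 each, 0.12 adjusted over the 6 pairs). How often pairs of other genes lack overlap was not computed. These ratios use the same Ebf4 counts as its call, so they are not separate support for it. Each of these 3 differences was larger than the spread between libraries.

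Among the other members the differences were small. Ebf3 to Ebf1 differed by -0.14 (SE 0.04) and Ebf3 to Ebf2 by -0.21 (SE 0.09), without overlap (exact permutation p = 0.1, 0.12 adjusted). Ebf2 to Ebf1 differed by 0.07 (SE 0.08), with overlap (exact permutation p = 0.6). Over the 6 libraries, with each gene centred on its mean log2 CPM, Ebf1 and Ebf3 were the closest pair, with a root mean square difference of 0.08. Ebf1 and Ebf2 differed by 0.09, while Ebf4 was 0.31, 0.38 and 0.43 from Ebf3, Ebf1 and Ebf2.

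Partners of Ebf were described next, and none of the 5 passed the test. Their median log2 fold change was 0.21. Lhx2, which binds beside Ebf at receptor enhancers and promoters, was at 193, 257 and 204 CPM in wild-type libraries and 200, 206 and 174 CPM in transgenic libraries, with overlap (log2 fold change -0.17, edgeR adjusted p = 0.536). Without wild-type library 2 its value was -0.0326. Wild-type library 2 was the highest for Lhx2 and for the Ebf genes, but also for other genes such as Omp and Cnga2, so this trait is not particular to them. Ldb1, the bridging cofactor of Lhx2, ran from 109 to 118 CPM over all 6 libraries (0.03, adjusted p = 0.879). Emx2, a homeodomain factor needed for the expression of many receptor genes, was at 29.0 to 35.3 CPM in wild-type libraries and 35.4 to 41.6 CPM in transgenic libraries. Its groups did not overlap, as for 11.4% of genes tested in that direction, and it did not pass (0.21, adjusted p = 0.358). Its value was 0.13 when wild-type library 3 or transgenic library 2 was left out.

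The zinc finger partners were at low levels. Zfp423, or Roaz, which binds Ebf proteins and holds back their action on mature neuron genes, was at 11.1 to 14.6 CPM in wild-type libraries and 12.7 to 16.0 CPM in transgenic libraries (log2 fold change 0.22, edgeR adjusted p = 0.477). Zfp521, a related Ebf antagonist, was at 4.97 to 8.22 and 7.84 to 8.47 CPM (0.29, edgeR adjusted p = 0.475). Both overlapped between genotypes. Leaving out 1 library gave 0.15 to 0.36 for Zfp423, and for Zfp521 0.12 without wild-type library 2 to 0.47 without wild-type library 1.

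Genes known for an Olf-1 site in their promoter had values below 0 throughout. Of 4 tested, 1 was called lower and 0 higher, with a median of -0.63, and the groups did not overlap in any of the 4. Over all genes tested, 2.2% were called lower and 12.5% were lower without overlap. Omp was at 9695, 12517 and 12341 CPM in wild-type libraries and 6700, 7005 and 6655 CPM in transgenic libraries (log2 fold change -0.76, SE 0.14, edgeR adjusted p = 0.0305). Leaving out any library but wild-type library 1 ended this call, with edgeR adjusted p of 0.0534 to 0.151. The other 3 did not pass. Cnga2, a channel subunit of the odorant response, had a value of -0.66 (adjusted p = 0.0728). Adcy3, the adenylyl cyclase that makes the cyclic AMP opening that channel, had -0.60 (0.123), and Gnal, the G protein subunit that activates the cyclase, had -0.52 (0.145). The fold change of Ebf4 lay within 0.02 of that of Omp, and the 4 genes are also markers of mature neurons, so the list is not independent of the share of neurons in the tissue.

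**Figure D3:**
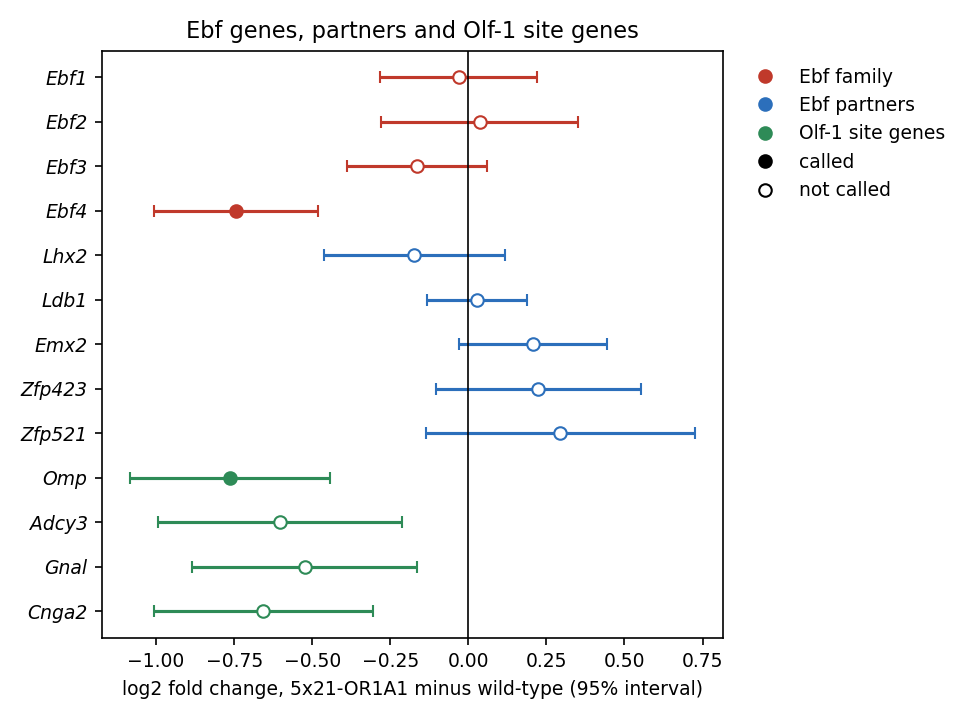
Log2 fold change (5x21-OR1A1 minus wild-type) with its 95% interval from the edgeR fit, for the Ebf genes, their partners and genes with an Olf-1 site; filled points passed an adjusted p of 0.05. Ebf4 (-0.74) and Omp (-0.76) are the filled points, and the intervals of Ebf1, Ebf2, Ebf3 and all 5 partners cross 0.

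Called markers of the neuronal stages differed in direction, where 2.2% of all genes tested were called lower and 0.519% higher. Of 14 mature neuron markers 6 fell and 0 rose, with a median of -0.68; these were Ric8b (-0.74), Gng13 (-0.81), Gfy (-0.76), Umodl1 (-0.71), Cnga4 (-0.68) and Omp. Of 10 immature neuron markers 4 rose and 0 fell, with a median of 0.44, namely Stmn2 (0.44), Stmn1 (0.51), Dpysl3 (0.72) and the growth cone gene Gap43 (0.78). Of 10 progenitor markers 5 rose and 0 fell, with a median of 0.66, among them the neurogenic factors Insm1 (0.97), Neurod1 (0.84) and Nhlh1 (0.70) and the mitotic gene Top2a (0.60). Over all 14 lists 18 genes were called, Ebf4 included, and this count was 7 or 9 when wild-type library 2 or 3 was left out and 3, 5 or 3 when transgenic library 1, 2 or 3 was. The part of these stages in the fall of Ebf4 was not tested.

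These marker counts were set beside each member as a ratio within a library. Per count of mature neuron markers, Ebf4 differed by -0.04 on the log2 scale between genotypes (SE 0.16), with overlapping groups (two-sided exact permutation p = 0.9). The same ratio was higher in transgenic libraries by 0.68 for Ebf1 (SE 0.09), 0.75 for Ebf2 (SE 0.06) and 0.55 for Ebf3 (SE 0.08). For these members the groups did not overlap (exact permutation p = 0.1 each, 0.133 adjusted over the 4 ratios). Scaling every gene to the mature markers put the median gene at 0.71 and called 77.7% of genes, so rises of this size were not particular to them. Omp had the most counts of the markers summed, and against Omp alone the Ebf4 difference was 0.01. Against single mature markers the Ebf4 difference ran from -0.45 for Rtp2 to 0.05 for Gng13. It was above 0 only for Omp, Gfy and Gng13 and below 0 for the rest. Per count of immature neuron markers the members differed by -0.41, -0.34, -0.55 and -1.13 for Ebf1 to Ebf4, and per count of progenitor markers by -0.61, -0.53, -0.74 and -1.33. Ebf4 was the member closest to 0 against mature markers and the one farthest from 0 against the earlier markers. This order follows from the fold change of each member and the directions of the marker sums, so it is not a separate result.

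**Figure D4:**
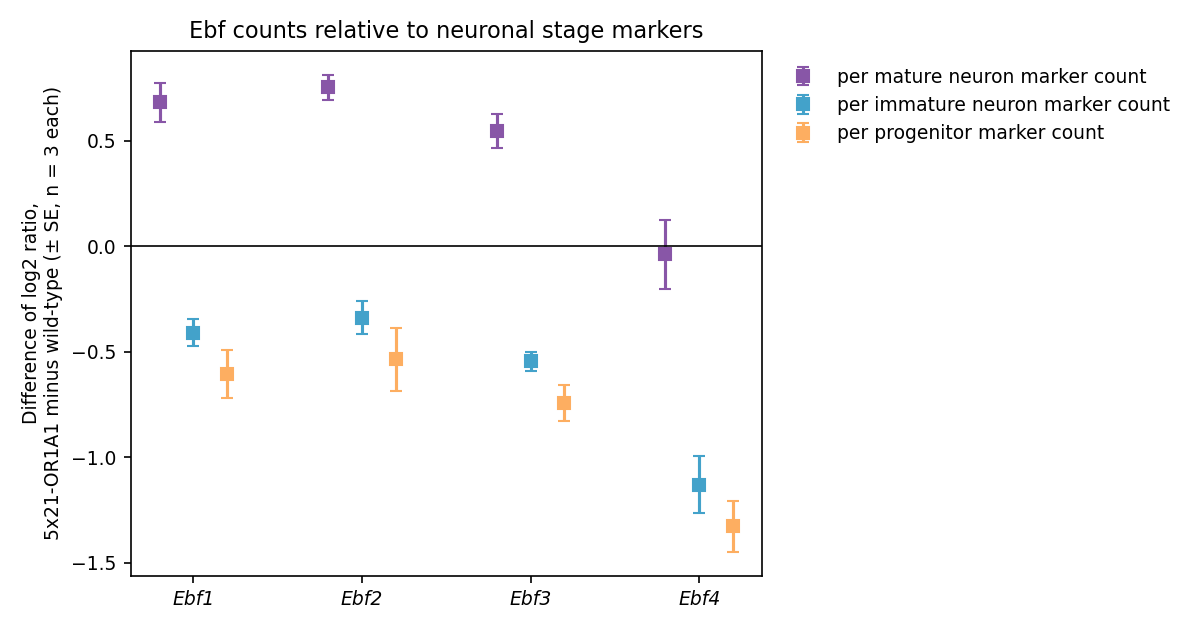
Difference between genotypes in the log2 ratio of each Ebf gene to the summed counts of 3 marker lists (mean difference ± SE, 3 libraries per group). The Ebf4 difference is -0.04 per mature marker count and -1.33 per progenitor marker count, and those of Ebf1, Ebf2 and Ebf3 are between 0.55 and 0.75 per mature marker count. Scaling to mature markers put the median log2 fold change of all genes tested at 0.71.

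Markers of other cells in which Ebf genes are active were read beside these values. No member of the 11 B-lineage markers tested passed (median 0.36), and most were near the detection limit. Mean levels in wild-type and transgenic tissue were 0.453 and 0.823 CPM for Cd22 and 0.480 and 0.982 CPM for Ms4a1, which did not pass (edgeR adjusted p = 0.183 and 0.208). The list summed to 46.4 to 63.1 CPM in wild-type libraries and 53.4 to 58.2 CPM in transgenic libraries, most of it from Vpreb3, at a mean of 45.4 and 42.6 CPM. Rag1 and Dntt had too few counts to test.

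Stromal lists were more variable. None of 12 fibroblast and mural cell markers passed (median log2 fold change 0.18; the 2 genes with the lowest p were Pdgfrb, with a log2 fold change of 0.30, and Dcn, with 0.28), and their sum ran from 3403 to 6564 CPM in wild-type libraries and 6618 to 7514 CPM in transgenic libraries. None of 7 osteoblast markers passed (median 0.29; Sp7, 0.79, and Alpl, 0.46). Wild-type library 2 was low in these cells' genes, with 992 CPM for the collagen gene Col1a1 against 2484 CPM or more in the other libraries, and 4.34 CPM for Sp7 against 12.7 CPM or more. Without it the values were 0.40 for Sp7 and 0.19 for Alpl, and without wild-type library 1 they were 1.26 and 0.78. Of 6 adipocyte markers only Pparg had enough counts to test, with a value of -0.12, and Adipoq, the defining adipokine, had 5 to 15 counts per library. None of 5 sustentacular (median -0.17; Cyp1a2, -0.36, and Ermn, -0.22), 4 horizontal basal cell (0.14; Trp63, 0.27, and Krt5, 0.40) or 5 olfactory ensheathing glia markers (-0.05; Sox10, -0.12) passed. Krt5 was at 178 CPM in transgenic library 1 against 117 and 93.4 CPM in the other two, and without that library its value was 0.10. Sox10 ran from -0.20 without transgenic library 2 to -0.05 without transgenic library 1. Of 7 olfactory bulb and brain markers Slc1a2 (-0.84) and Eomes (-0.90) were called lower and none was called higher. Slc1a2 and Eomes had means of 67.7 and 6.23 CPM in wild-type tissue. Mbp was at 36.5 CPM there, while Tbr1, Gad1, Gad2 and Gfap, at 0.738 to 1.54 CPM, were near the detection limit. The list was mixed, with 4 markers below 0 and 3 above (median -0.20). The part of these cells in the Ebf values was not tested.

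**Figure D5:**
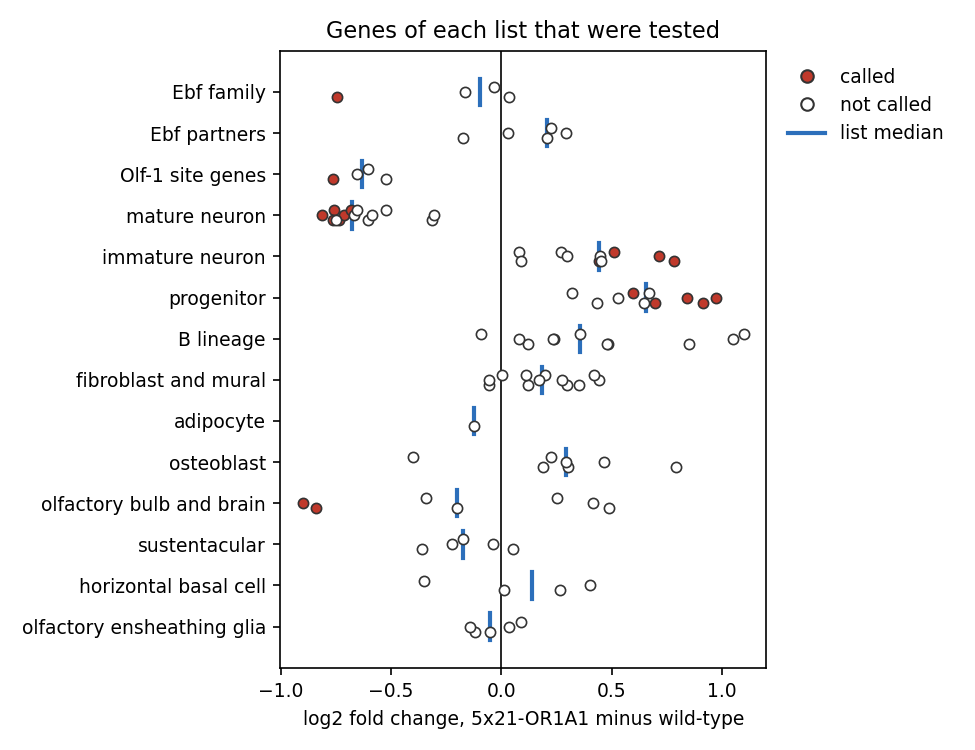
Log2 fold change (5x21-OR1A1 minus wild-type) of every tested gene of each list; filled points passed an adjusted p of 0.05 and the blue bar is the list median. Mature neuron markers lie left of 0 (median -0.68) and immature and progenitor markers right of 0 (medians 0.44 and 0.66), with 1 filled point in the Ebf family.

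The neighbours of Ebf4 on chromosome 2 were also read. The 3 nearest tested protein-coding genes before it were Snrpb, Nop56 and Idh3b, and the 3 after it Cpxm1, Pced1a and Vps16. None was called, and their log2 fold changes ran from -0.21 to 0.05 with a median of -0.11. The nearest, Idh3b, lies 10.62 kb away and had a value of -0.14 (edgeR adjusted p = 0.339). None of the 6 nearest neighbours of Ebf1, Ebf2 or Ebf3 was called either.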

How the data were processed

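Read counts per gene from 6 libraries of mouse olfactory epithelium were analysed, 3 wild-type and 3 5x21-OR1A1. The labels' protocols describe poly-A selection, a TruSeq kit that keeps no strand and single-end reads of 100 bp. The authors deposited unnormalized counts for each gene symbol; the submitters' processing notes name TopHat2 2.1.1, HTSeq 0.9.1 and GRCm38.p5. Annotation release and counting options: not given in the sources used here. Columns were matched to libraries by name. The main test was edgeR 4.0.16 (R 4.3.3) with TMM scaling, the default filter (minimum count 10, total 15), genotype as the only term, the quasi-likelihood test and p-values adjusted by Benjamini-Hochberg over 19267 genes; it was tested on simulated data. DESeq2 1.42.0 and limma 3.58.1 (voom) were alternatives. Standard errors are the fold change over the square root of F on the log2 scale. Ratios within libraries were compared by exact permutation tests. Of 53686 symbols, 49627 occur once in GENCODE M21, which gave lengths and positions. Named genes are the 4 members, their partners and Olf-1 site genes, the called genes of each other list or else the 2 with the lowest p, and the genes most alike in pattern; 2 list genes are counted in their lists but not reported here by value. The members and lists were chosen with earlier results of these data known. Promoter sequences are from RefSeq on GRCm38.p6. The labels do not say that equal replicate numbers mark shared animals or days, so numbers were not used as pairs. Correlations of same-numbered libraries, given below, cannot decide this, since the 3 deviations of a group depend on each other.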

Additional observations from a re-analysis of the deposited data

How the results depend on the processing

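Alternatives to the lists, to the named genes and to the marker ratios by immature and progenitor lists were chosen after seeing the data. Ebf4 was negative in all 15 alternatives (-0.83 to -0.0513) and called in 12, with adjusted p from 1.108e-07 to 0.752. Scaling to mature neuron markers gave -0.0513 (edgeR adjusted p = 0.752) and put the median gene at 0.71. It gave Ebf1 0.68, Ebf2 0.75 and Ebf3 0.54. With it, 3 members, 71 list genes and 14969 genes in all were called, 14714 of these higher and 255 lower. It also turned Lhx2 to 0.54, Cnga2 to 0.0644, Adcy3 to 0.11, Gnal to 0.18, Cnga4 to 0.0328, Pparg to 0.59, Cyp1a2 to 0.34, Ermn to 0.49 and Sox10 to 0.58. DESeq2 called 1215 genes (313 higher, 902 lower) and 32 list genes, against 523 (100 and 423) and 18 in the main test, and without a filter 163 were called higher; the cause was not tested. At an adjusted p under 0.01, 154 genes (12 higher, 142 lower), 3 list genes and 0 members were called; at an unadjusted p under 0.05 Ebf4 alone of the 4 passed in edgeR.

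Leaving out 1 library gave 150 to 626 genes (14 to 154 higher, 136 to 472 lower), 3 to 19 list genes and 0 to 1 members. It gave -0.11 to 0.10 for Ebf1, -0.0740 to 0.20 for Ebf2, -0.22 to -0.07 for Ebf3 and -0.83 to -0.66 for Ebf4. Ebf1 turned to 0.10 without wild-type library 2, and Ebf2 to -0.0740, -0.0022 and -0.0429 without wild-type libraries 1 and 3 and transgenic library 2; Pparg ran from -0.36 to 0.0486, above 0 without wild-type library 2 (0.01) and transgenic library 3. Without transgenic library 1 Ebf4 was -0.77 and without transgenic library 3 -0.66, both below the call. Member ratios stayed below 0 for Ebf4 to the others (-0.88 to -0.50), and Ebf2 to Ebf1 ran from -0.0034 to 0.12. Per mature marker count Ebf4 ran from -0.14 to 0.11. With immature markers in its place the ratios were -0.41, -0.34, -0.55 and -1.13 for Ebf1 to Ebf4, and with progenitor markers -0.61, -0.53, -0.74 and -1.33.

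With the replicate number as a block, 377 genes were called, 54 of them higher, with 15 list genes called against 18. Ebf4 stayed called, and Omp (adjusted p = 0.0627), Stmn2 (0.0834), Top2a (0.0642) and Eomes (0.0666) were among those that lost the call; the numbers are not known to pair libraries, and same-numbered libraries correlated at -0.33, 0.07 and -0.17 in their deviations from the group means.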

Other observations

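For each Ebf gene, the 3 genes of at least 5 CPM with the most similar pattern over the 6 libraries were found by the root mean square difference of log2 CPM after each gene was centred on its mean. For Ebf4 these were Gm13648 (0.06), Hcn2, which encodes a channel opened by hyperpolarization (0.08), and the neuronal kinase gene Aatk (0.08). They went from 161, 148 and 57.8 to 104, 89.0 and 33.2 CPM in mean level between wild-type and transgenic tissue. For Ebf1 they were 1700030J22Rik, Pitpnc1 and Senp7, at 0.02 to 0.03. For Ebf2 they were Phf8, Rflnb and Rnf182, at 0.03 to 0.05. For Ebf3 they were 5430419D17Rik (0.01), Aph1b, a subunit of gamma-secretase (0.02), and Bbs1, a protein of the ciliary BBSome (0.02). With 19267 genes and 6 libraries, close patterns are easy to find, and they are given as a description only.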
